A study of Homo sapiens with 6 samples.

Results

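The 42 genes described here build the sugar chains of mucins: 12 enzymes that start O-glycans, 6 genes of core synthesis, 7 of chain extension, 10 of sialylation, 6 of fucosylation and 1 of sulfation. They were picked by gene symbol, with earlier results of these data known, from the 63241 genes of the deposited table, and each symbol was found. RNA-seq was carried out on HT-29 cells, which come from a human colorectal adenocarcinoma, with 3 libraries in each of 2 groups. The Control group received buffer, and the A904 group received 0.5 μM Amuc_0904, a recombinant outer membrane protein of the mucus bacterium *Akkermansia muciniphila*, for 72 h. Dose and time were taken from the legend of the published RNA-seq analysis, since the labels do not hold them. All 6 libraries are from wild type cells of this line without any other agent in the labels.

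Mucin O-glycans start in the Golgi when a polypeptide GalNAc-transferase (GALNT) attaches N-acetylgalactosamine (GalNAc) to serine or threonine of the mucin backbone. C1GALT1, which needs its chaperone C1GALT1C1, adds galactose to make core 1, a GCNT enzyme branches core 1 into core 2, and B3GNT6 instead makes core 3, the core typical of normal colon. Galactosyl- and N-acetylglucosaminyltransferases then lengthen the chains, and sialic acid, fucose or sulfate caps them, with the capping sugars supplied as nucleotide-activated donors. In the colon these chains make up most of the mass of mucins and serve as food and attachment sites for bacteria such as *A. muciniphila*. The comparison asks whether exposure to the bacterial protein was accompanied by a different level of the mRNAs for this machinery.

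Values are TPM, a relative transcript abundance; they are scaled for gene length and so allow levels of different genes to be compared. A gene was tested where it reached 1 TPM in at least 3 libraries, as 14333 genes did, 35 of the members among them. Differences are given as log2 fold changes of TPM + 1, A904 against Control, from limma with p-values adjusted over all 14333 genes, where "rose" and "fell" are used only below an adjusted p of 0.05. Nothing in the labels says that the libraries of a group came from separate cultures, so a p-value measures the spread between these libraries, which may be technical. In cultured cells measured in bulk, a smaller share of cells of some kind and less RNA per cell cannot be told apart.

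The library of A904 replicate 1 stood apart from its group. On the first principal component of all tested genes, which held 35.5% of the variance, it scored -4.79, between the Control libraries at -13.0 to -12.4 and the other two A904 libraries at 20.4 and 22.8. Mitochondrially encoded genes took 12.8% to 13.5% of TPM in Control, 13.0% in A904 replicate 1, and 10.6% and 11.1% in A904 replicates 2 and 3. The fold changes of the genes named are therefore given with and without that library. It was singled out from these same values, as the A904 library nearest to Control. Leaving it out tends to widen the gap between the groups, so p-values of that fit are likely too small. There "rose" and "fell" serve as description only. The colon epithelium marker list (10 genes) summed to 7135 to 7179 TPM in Control and to between 7148 and 7980 TPM in A904, and the goblet cell list (10 genes, *ITLN1* at 0) to 74.8 to 75.7 TPM in Control and 115, 169 and 165 TPM in A904, most of it from *REG4*. The labels call the cells enterocytes. Of 12 enterocyte markers, *CA1* and *AQP8* were at 0 in every library and *SLC26A3* did not exceed 0.04 TPM, whereas *FABP1* and *CA2* were well detected, the list summing to 173 to 185 in Control and 181 to 209 TPM in A904. *CEACAM7*, an adhesion molecule of mature colonocytes, was the list's only gene past the adjusted p, and it fell from 8.64, 9.16 and 7.28 TPM in Control to 1.33, 1.94 and 1.87 TPM in A904 (log2 fold change -1.79, limma, adjusted p = 0.00322, and -1.68 with an adjusted p of 0.00099 without A904 replicate 1). The 4 other tested enterocyte markers had the higher mean with A904. Of the 7 leukocyte markers *CD3E* was at 0 and *PTPRC* at no more than 0.02 TPM, and nearly all of the list's 2477 to 2701 TPM was *LYZ*. *CD14*, the only other tested gene of that list, was at 4.74, 4.76 and 4.65 TPM in Control and 2.79, 1.89 and 2.85 TPM in A904. Its log2 fold change was -0.72 (limma, adjusted p = 0.15), and -0.78 without A904 replicate 1 (limma, adjusted p = 0.0153). The 8 fibroblast and endothelial markers summed to 3.05 to 3.84 TPM, with *COL1A2* and *CDH5* at 0. The part of these differences between libraries in the results below was not tested.

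With all 6 libraries, no member rose and none fell. Across all genes tested, 0.167% fell and 0.0698% rose (limma, adjusted p). At an unadjusted p under 0.05, 4 of the 35 tested members (11.4%) were lower with A904, namely *B4GALT5*, *B4GALT1*, *GALNT4* and *B3GALT5*, where 5.87% of all genes were, and 2 members (5.71%), *CMAS* and *GMDS*, were higher, where 9.95% of all genes were. These counts were 6 lower and 1 higher with median-of-ratios scaling of the libraries, and 8 lower and 1 higher with quantile normalization. They also moved with single libraries: the lower count was 12 without A904 replicate 1, 2 without A904 replicate 3 or without Control replicate 3, and 1 without any of the other three, and the higher count was 3 without A904 replicate 1, 2 without A904 replicate 3, and 1 without A904 replicate 2 or any Control library.

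In 25 of the 35 tested members the A904 mean was the lower. Fold changes ran from -0.40 to 0.26 on the log2 scale with a median of -0.06, and the median over all genes tested was 0.001. The 3 libraries of A904 lay wholly below those of Control in 4 members (11.4%, against 7.59% of all genes), *B4GALT5*, *B3GALT5*, *GNE* and *FUT2*, and wholly above in 4 others (11.4%, against 13.4% of all genes), *GALNT1*, *GALNT10*, *CMAS* and *GMDS*. The summed TPM of all 42 genes was 1156, 1193 and 1122 in Control and 1150, 1104 and 1113 in A904, which overlap.

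Without A904 replicate 1, 6 members fell (17.1%, against 8.85% of all genes) and 3 rose (8.57%, against 9.34% of all genes). The 6 were *GALNT3*, *GALNT4*, *B3GNT3*, *B4GALT1*, *B4GALT5* and *B3GALT5*, which start or lengthen chains, and the 3 were *ST3GAL4*, a sialyltransferase, *CMAS* and *GMDS*, which supply the sialic acid and fucose donors. The median fold change of the members was -0.13 on the log2 scale in that fit, and that of all genes -0.028. Library by library, the median member stood 0.037 above the Control mean in A904 replicate 1 and 0.13 below it in both A904 replicates 2 and 3 (log2 scale), so the lower levels were those of 2 of the 3 A904 libraries. The median of all tested genes stood 0.05 above the Control mean in A904 replicate 1, and 0.024 and 0.030 below it in A904 replicates 2 and 3.

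**Figure D1:**
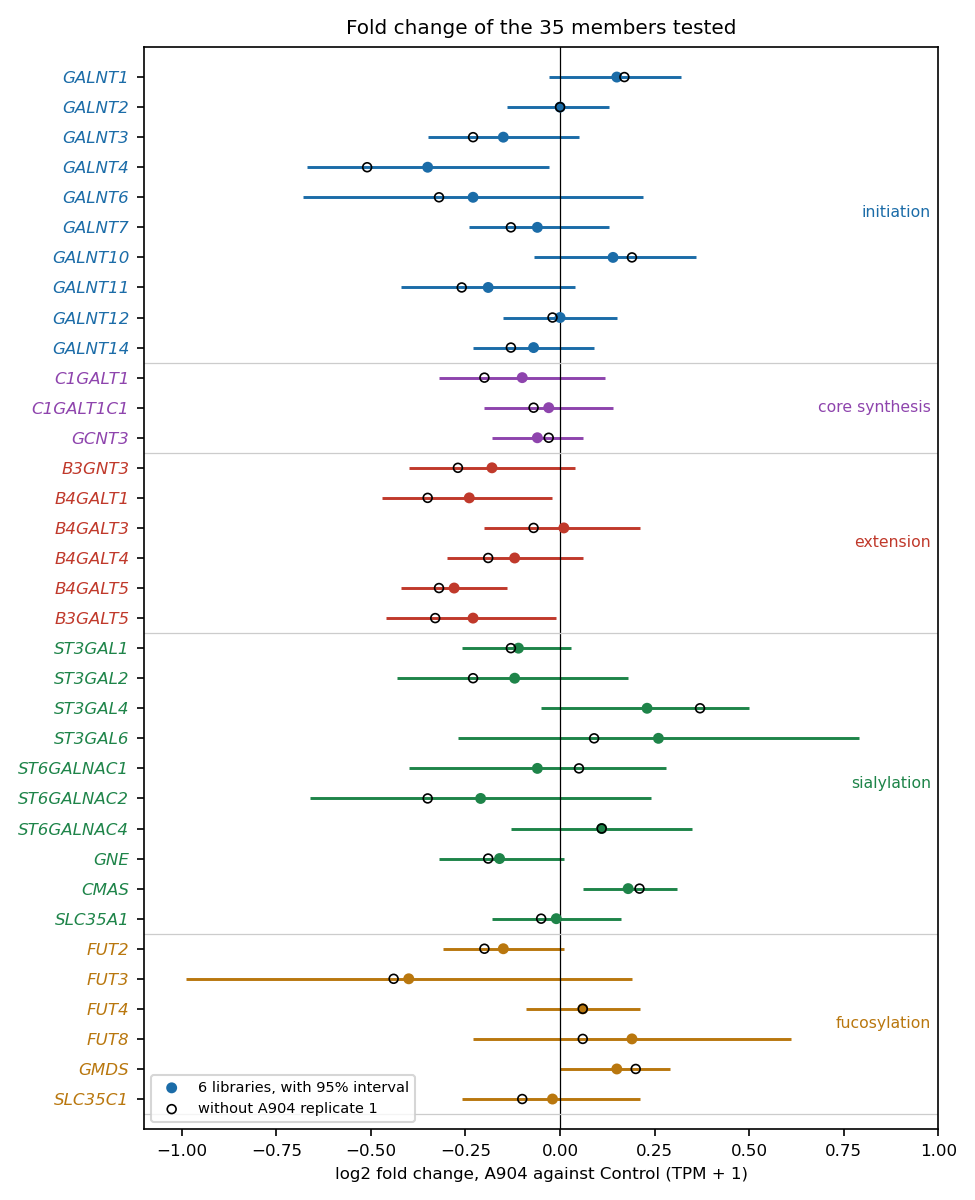
Log2 fold change of TPM + 1 (A904 against Control) of the 35 members tested, grouped and coloured by role; filled points and bars give the fit of all 6 libraries with its 95% interval, open points the fit without A904 replicate 1. The extension enzymes lie lowest as a group, with a median of -0.21 in all 6 libraries and -0.30 without A904 replicate 1.

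As an example of the regulatory sequence in front of such genes, the 250 bases before the RefSeq transcription start are shown for *B4GALT5* and *CMAS*, the members with non-overlapping groups and the smallest p in each direction. Both were read from the RefSeq promoter table on GRCh38.p14, the first from chr20:49713879-49714128 on the minus strand and the second from chr12:22045968-22046217 on the plus strand. Capitals mark the GC box (GGGCGG, or CCGCCC where it lies on the opposite strand), the binding motif of Sp1-type factors.

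B4GALT5: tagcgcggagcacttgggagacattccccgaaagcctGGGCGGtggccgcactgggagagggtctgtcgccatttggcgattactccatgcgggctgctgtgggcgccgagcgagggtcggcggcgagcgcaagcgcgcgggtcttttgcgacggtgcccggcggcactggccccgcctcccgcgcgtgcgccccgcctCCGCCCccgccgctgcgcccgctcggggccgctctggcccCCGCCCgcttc

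CMAS: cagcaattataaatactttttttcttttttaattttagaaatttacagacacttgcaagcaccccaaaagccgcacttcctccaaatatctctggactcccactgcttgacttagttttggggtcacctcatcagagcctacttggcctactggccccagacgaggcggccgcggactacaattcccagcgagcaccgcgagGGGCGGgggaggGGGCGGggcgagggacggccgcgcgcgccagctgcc

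The *B4GALT5* stretch held 3 GC boxes at 75.6% G and C, and the *CMAS* stretch 2 at 56% G and C. Of the 42 members, 32 had an entry, with 52 promoters in all. A GC box was present in 36 of the 52 (69.2%), and in 42.6% of all 35116 promoters of that length in the table. The CCAAT box (CCAAT, both strands) was found in 13 (25%) of the member promoters against 32% of all, the E box (CACGTG) in 2 (3.85%) against 6.34%, and the NF-κB consensus in 1 (1.92%), that of *FUT8*, against 5.21%. These matches of letters describe the sequence and were not tied to any binding.

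The initiating enzymes were led by *GALNT3*, and their proportions differed little between the groups. *GALNT3*, whose enzyme glycosylates many mucin-like substrates, was at 96.4, 101 and 90.9 TPM in Control and 97.7, 83.1 and 79.8 TPM in A904. Its A904 replicate 1 lay among the Control libraries and the other two A904 libraries lay below them. The fold change was -0.15 ± 0.08 (SE, log2 scale; limma, adjusted p = 0.429), and without A904 replicate 1 it was -0.23 (limma, adjusted p = 0.03). Of the summed GALNT TPM, *GALNT3* held 37% ± 0.495 in Control and 35.6% ± 1.08 in A904 (SD, n = 3), a difference of -1.38 percentage points that was not tested. *GALNT3*, *GALNT14* and *GALNT7* together held 63.7% to 65.8% in every library.

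*GALNT4*, which prefers substrates that already carry GalNAc, was measured at 7.61, 8.25 and 8.19 TPM in Control and at 7.76, 5.31 and 5.39 TPM in A904. Replicate 1 of A904 lay inside the Control range, while the 2 others were below every Control library. This gave a fold change of -0.35 ± 0.14 (SE, log2 scale; limma, adjusted p = 0.295), and of -0.51 without A904 replicate 1 (limma, adjusted p = 0.00941). Its exons (chr12:89519408-89524806 on GRCh38, minus strand) lie almost entirely, at 93.2%, within those of the read-through gene *POC1B-GALNT4*, which averaged 0.735 TPM, so the division of reads between the pair is uncertain.

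*GALNT1*, a broadly active family member, was at 8.52, 8.92 and 7.99 TPM in Control and 9.13, 9.70 and 9.63 TPM in A904. All A904 values were above all Control values, by a fold change of 0.15 ± 0.08 (SE, log2 scale; limma, adjusted p = 0.392), or 0.17 without A904 replicate 1 (limma, adjusted p = 0.167). *GALNT10*, another enzyme that acts on partly glycosylated peptides, also had groups that did not overlap, 6.18 to 6.71 in Control and 6.74 to 8.06 TPM in A904 (fold change 0.14, limma, adjusted p = 0.486, and 0.19 with an adjusted p of 0.186 without A904 replicate 1). The remaining tested members of this step, *GALNT2*, *GALNT6*, *GALNT7*, *GALNT11*, *GALNT12* and *GALNT14*, overlapped between the groups, from 5.21 TPM in the lowest library of *GALNT6* to 46.9 TPM in the highest of *GALNT14*. For *GALNT12*, 21.1% of the exon bases also lie in the antisense gene *AL136084.2*, which averaged 7.24 TPM, and it is not stated whether the counting used strand. *GALNT5* (0.29 to 0.59 TPM) and *GALNT8* (0 to 0.40 TPM) were below the test's minimum.

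Core synthesis was dominated by *GCNT3*, the mucin-type branching enzyme of core 2 and core 4, which was the highest of all members. It was at 286, 297 and 283 TPM in Control and 268, 273 and 291 TPM in A904, with overlapping groups and a fold change of -0.06 ± 0.05 (SE, log2 scale; limma, adjusted p = 0.6), or -0.03 without A904 replicate 1 (limma, adjusted p = 0.596). The other branching enzymes, *GCNT1* (0.03 to 0.71 TPM) and *GCNT4* (0.05 to 0.17 TPM), were near 0, and *GCNT3* held 99.7% to 100% of the sum of the 3. The core 3 synthase *B3GNT6* was at 0.17 to 0.23 in Control and 0.27 to 0.58 TPM in A904, too low to be tested.

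The core 1 synthase *C1GALT1* was at 38.1 to 42.5 in Control and 34.2 to 43.2 TPM in A904, and its chaperone gene *C1GALT1C1* at 41.2 to 46.0 and 39.2 to 45.4 TPM. Both pairs of ranges overlap, and neither gene passed the test in the fit without A904 replicate 1. The summed TPM of the 3 GCNT genes divided by that of *C1GALT1* was 6.99, 6.99 and 7.45 in Control and 6.20, 7.58 and 8.51 in A904. On the log2 scale the groups' means were 2.84 and 2.88, a difference of 0.04 (exact permutation test over 20 splits, two-sided, p = 0.7, where the smallest possible p is 0.1), which was -0.059 without A904 replicate 3 and 0.17 without A904 replicate 1. The ratio of *ST3GAL1*, which caps core 1 with sialic acid, to *GCNT1* plus *GCNT3*, which branch it, was 0.326, 0.312 and 0.290 in Control and 0.315, 0.298 and 0.280 in A904 (exact permutation test, two-sided, p = 0.5), a difference of -0.06 on the log2 scale that was -0.10 without A904 replicate 1.

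**Figure D2:**
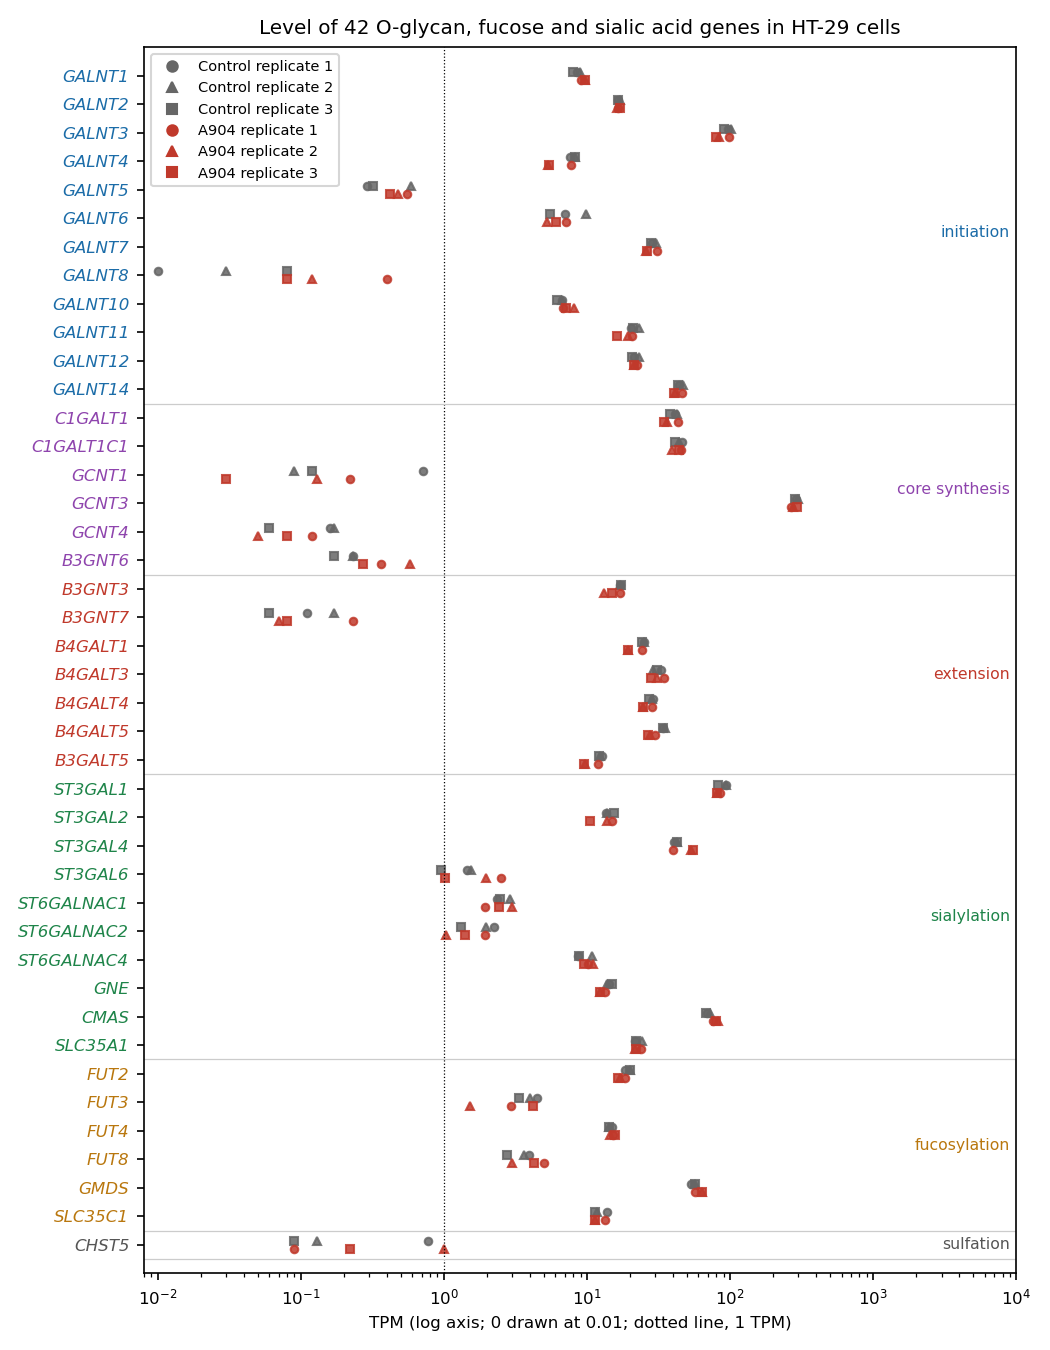
TPM (log axis, 0 drawn at 0.01) of the 42 genes in the 3 Control libraries (grey) and 3 A904 libraries (red), by role; the dotted line marks 1 TPM. *GCNT3* lies highest at 268 to 297 TPM, and *GALNT5*, *GALNT8*, *GCNT1*, *GCNT4*, *B3GNT6* and *B3GNT7* lie below 1 TPM in every library.

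Among the extension enzymes 5 of 6 tested members had the lower mean with A904, and 4 of 6 fell without A904 replicate 1, a fit in which 8.85% of all genes fell. Their summed level was 150, 147 and 145 TPM in Control and 146, 125 and 123 TPM in A904, where A904 replicate 1 lay within the Control range and the 2 others below it. In A904 replicates 2 and 3 the median extension enzyme stood 0.31 and 0.26 below the Control mean on the log2 scale, and 0.016 below it in replicate 1. The median of all tested genes stood 0.024 and 0.030 below the Control mean in A904 replicates 2 and 3, and 0.05 above it in replicate 1.

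*B4GALT5*, a galactosyltransferase best known for making lactosylceramide and also able to act on core 2 branches, had the smallest p of all members. It was at 33.8, 34.96 and 33.7 TPM in Control and 29.6, 27.3 and 26.8 TPM in A904. Every A904 library was below every Control library, A904 replicate 1 included. The fold change was -0.28 ± 0.06 (SE, log2 scale; limma, adjusted p = 0.191), with a 95% interval of -0.42 to -0.14. Its adjusted p ran from 0.00731, without A904 replicate 1, to 0.543 over 15 alternative fits. The gene spans chr20:49632945-49713878 on GRCh38.

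*B4GALT1*, the main galactosyltransferase of N-acetyllactosamine chains, was at 25.1, 25.0 and 24.1 TPM in Control and 24.2, 19.2 and 19.2 TPM in A904. The groups overlapped through A904 replicate 1 alone, and the fold change was -0.24 ± 0.09 (SE, log2 scale; limma, adjusted p = 0.292). Without that library it was -0.35 (limma, adjusted p = 0.0075).

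*B3GALT5*, which builds the type 1 chains that carry Lewis a and sialyl Lewis a, was at 12.6, 12.2 and 12.1 TPM in Control and 11.9, 9.73 and 9.45 TPM in A904. The groups did not overlap, although A904 replicate 1 came close to the lowest Control library. The fold change was -0.23 ± 0.10 (SE, log2 scale; limma, adjusted p = 0.307), and -0.33 without A904 replicate 1 (limma, adjusted p = 0.018).

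*B3GNT3*, which adds N-acetylglucosamine to core 1 and is named here because it fell without A904 replicate 1, was at 16.9, 17.0 and 17.2 TPM in Control and 17.0, 13.2 and 14.8 TPM in A904 (fold change -0.18, limma, adjusted p = 0.394, and -0.27 with an adjusted p of 0.0411 without that library). *B4GALT4* was at 26.9 to 28.7 in Control and 24.4 to 28.6 TPM in A904. *B4GALT3*, 28.7% of whose exon bases lie opposite *PPOX*, was at 28.9 to 32.7 and 27.9 to 34.3 TPM. *B3GNT7*, an enzyme of polylactosamine chains, did not exceed 0.23 TPM.

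**Figure D3:**
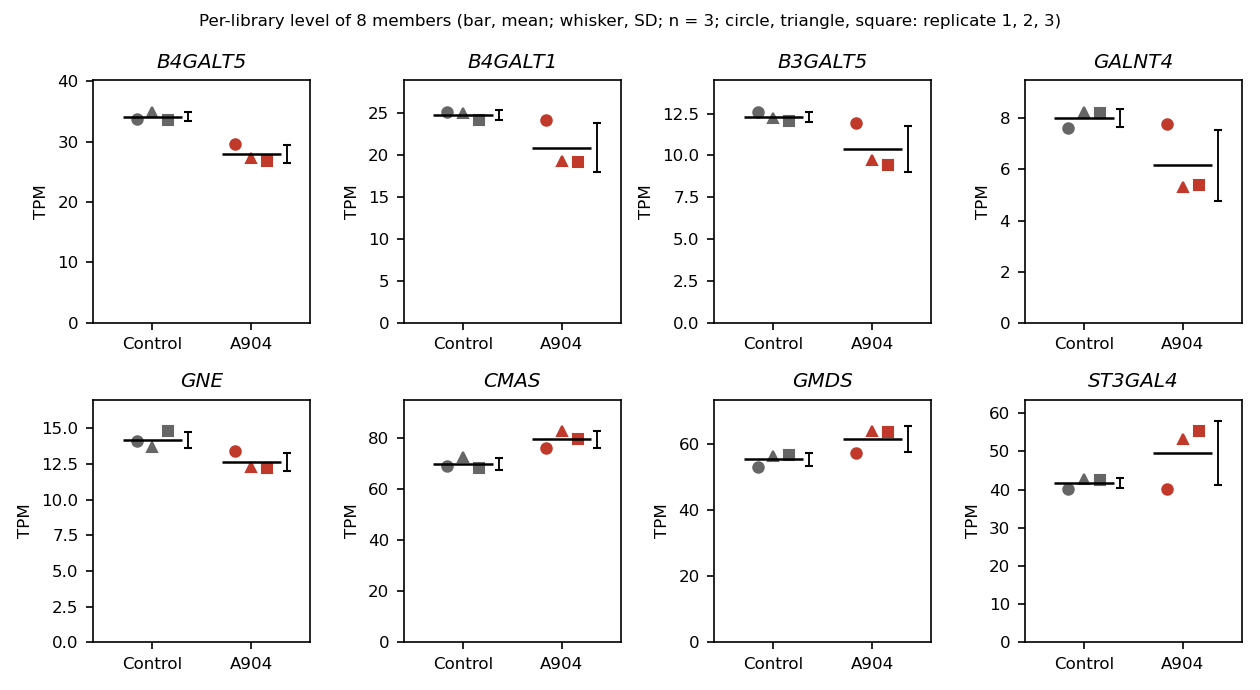
TPM from 0 of 8 members in each library of Control (grey) and A904 (red), with the mean (line) and SD (whisker, n = 3). For *B4GALT1*, *GALNT4* and *ST3GAL4* the circle of A904 replicate 1 lies level with Control while replicates 2 and 3 lie apart, and for *B4GALT5*, *B3GALT5*, *GNE*, *CMAS* and *GMDS* all A904 points lie on the same side of Control.

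The 5 members that make or carry sugar nucleotides, *GNE*, *CMAS*, *SLC35A1*, *GMDS* and *SLC35C1*, summed to 171, 179 and 173 TPM in Control and 184, 192 and 189 TPM in A904, every A904 library above every Control library. The sum is mostly that of *CMAS* and *GMDS*, and the 3 others had the lower mean with A904. This grouping is not one of the roles named at the start. *CMAS* and *GMDS* were each wholly above Control on their own, as were 13.4% of all genes. A wider list of 16 other genes of sugar nucleotide supply summed to 768, 765 and 771 TPM in Control and 794, 766 and 745 TPM in A904. Of its 15 tested genes, 10 had the lower mean with A904 and 5 the higher. The summed level of the other 37 members, the transferases and the chaperone, was 985, 1014 and 949 TPM in Control and 966, 912 and 925 TPM in A904, where the groups overlap.

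*CMAS*, which couples sialic acid to CMP and so makes the donor of every sialyltransferase, was at 68.7, 72.6 and 68.2 TPM in Control and 75.9, 82.5 and 79.6 TPM in A904. All 3 A904 libraries were above all Control libraries, with a fold change of 0.18 ± 0.05 (SE, log2 scale; limma, adjusted p = 0.238) that was 0.21 without A904 replicate 1 (limma, adjusted p = 0.0222).

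*GNE*, the bifunctional enzyme that starts sialic acid synthesis, was at 14.1, 13.7 and 14.8 TPM in Control and 13.4, 12.3 and 12.3 TPM in A904. These groups did not overlap either, with a fold change of -0.16 ± 0.07 (SE, log2 scale; limma, adjusted p = 0.332), or -0.19 without A904 replicate 1 (limma, adjusted p = 0.0813). The Golgi transporter of the activated donor, *SLC35A1*, was at 21.5 to 24.2 in Control and 21.5 to 23.9 TPM in A904.

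Of the sialyltransferases, *ST3GAL1*, which caps core 1, was the highest. It was at 93.5, 92.8 and 82.2 TPM in Control and 84.4, 81.4 and 81.5 TPM in A904, with overlapping groups (fold change -0.11 ± 0.06, SE, log2 scale; limma, adjusted p = 0.41), and it was -0.13 without A904 replicate 1 (limma, adjusted p = 0.192). *ST3GAL4*, which sialylates lactosamine ends and contributes to sialyl Lewis x, was at 40.3, 42.8 and 42.4 TPM in Control and 40.1, 53.4 and 55.3 TPM in A904. Here A904 replicate 1 was the lowest of all 6 libraries and the other two A904 libraries were the highest. The fold change was 0.23 ± 0.12 (SE, log2 scale; limma, adjusted p = 0.394) and was 0.37 without A904 replicate 1 (limma, adjusted p = 0.00496).

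Within the summed ST3GAL level, *ST3GAL1* held 60.9% ± 2.33 in Control and 56.2% ± 2.87 in A904, and *ST3GAL4* held 28.5% ± 1.51 and 33.7% ± 4.81 (SD, n = 3), and in both the ranges of the groups overlapped. *ST3GAL2*, which acts on core 1 and on glycolipids, was at 10.5 to 15.4 TPM over the 6 libraries, and *ST3GAL6*, a second enzyme of lactosamine ends, at 0.95 to 2.49 TPM. The enzymes that sialylate the first GalNAc were low: *ST6GALNAC1*, which makes sialyl-Tn, was at 1.92 to 2.98 TPM, *ST6GALNAC2* at 1.03 to 2.24 TPM and *ST6GALNAC4* at 8.69 to 10.9 TPM, each with overlapping groups.

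*GMDS*, the first enzyme of GDP-fucose synthesis from GDP-mannose, was the highest of the 6 fucosylation members, at 53.2, 56.5 and 56.7 TPM in Control and 57.2, 63.9 and 63.6 TPM in A904. The A904 libraries were all above Control, with A904 replicate 1 the nearest. The fold change was 0.15 ± 0.06 (SE, log2 scale; limma, adjusted p = 0.312), and 0.20 without A904 replicate 1 (limma, adjusted p = 0.0286). *SLC35C1*, the Golgi GDP-fucose transporter, was at 11.3 to 13.7 in Control and 11.3 to 13.3 TPM in A904.

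*FUT2*, the secretor enzyme that makes the H antigen on mucins, was at 18.5, 19.8 and 19.8 TPM in Control and 18.5, 17.0 and 16.5 TPM in A904. A904 replicate 1 was just below the lowest Control library and the groups did not overlap, and the fold change was -0.15 ± 0.07 (SE, log2 scale; limma, adjusted p = 0.331), or -0.20 without A904 replicate 1 (limma, adjusted p = 0.0657). *FUT3*, the Lewis enzyme, was scattered in A904, at 2.94, 1.51 and 4.17 TPM against 3.35 to 4.43 TPM in Control. Its near copies *FUT5* and *FUT6* did not exceed 0.07 TPM, and reads shared among the 3 cannot be assigned with certainty. *FUT4*, which makes Lewis x, was at 14.2 to 14.9 in Control and 14.5 to 15.7 TPM in A904, and *FUT8*, which fucosylates the N-glycan core, at 2.75 to 5.03 TPM over all 6 libraries. The only sulfotransferase of the set, *CHST5*, an intestinal enzyme that sulfates N-acetylglucosamine, reached 1 TPM in A904 replicate 2 only and was not tested.

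A further 85 genes linked to these steps or to sugar nucleotide supply, 54 of them tested, were examined in the same fit. They are called other pathway genes here, though not all of them act on mucins. None passed the adjusted p, 6 (11.1%) were lower and 1 (1.85%) was higher at the unadjusted p, against 5.87% and 9.95% of all genes, and the median fold change was -0.07 on the log2 scale. Without A904 replicate 1, 8 fell (14.8%) and 3 rose (5.56%), against 8.85% and 9.34% of all genes. The lower count at the unadjusted p was 18 without A904 replicate 1, 2 without Control replicate 1, 1 without Control replicate 2 or 3, and 0 without A904 replicate 2 or 3. The higher count was 5 without A904 replicate 1, 2 without A904 replicate 3 or Control replicate 2, and 1 without any of the other three.

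*UGDH*, which makes UDP-glucuronic acid from UDP-glucose, was at 86.3, 89.9 and 92.0 TPM in Control and 95.4, 108 and 107 TPM in A904, without overlap (fold change 0.21, limma, adjusted p = 0.243, and 0.26 with an adjusted p of 0.00814 without A904 replicate 1). *B3GNT5*, which starts lacto-series glycolipids, was at 18.2, 17.2 and 17.3 TPM in Control and 16.7, 13.7 and 13.2 TPM in A904 (fold change -0.27, limma, adjusted p = 0.273, and -0.37 with an adjusted p of 0.011 without A904 replicate 1). *ST3GAL5*, the GM3 synthase, was at 15.0, 14.2 and 14.8 TPM in Control and 14.0, 11.6 and 10.9 TPM in A904 (fold change -0.26, limma, adjusted p = 0.278, and -0.35 with an adjusted p of 0.0148 without that library). Both lay below Control in every A904 library. *POFUT2*, which fucosylates thrombospondin repeats and not mucins, was at 15.6, 18.2 and 16.4 TPM in Control and 15.7, 11.8 and 12.0 TPM in A904 (fold change -0.33, limma, adjusted p = 0.272, and -0.46 with an adjusted p of 0.0123 without that library). The 8 other GALNT genes were all under 1 TPM, and 9 pathway genes were at 0 in every library, *A4GNT* of the gastric mucin type and *CHST2* among them.

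For comparison, of 11 tested N-glycan branching genes none passed the adjusted p, 2 (18.2%) were lower and 0 higher at the unadjusted p, against 5.87% and 9.95% of all genes, with a median fold change of 0.00 on the log2 scale. *FUT8*, which is also a member, is 1 of the 11. The 2 lower genes were *MAN1A1* and *MGAT5*. Both of these also fell without A904 replicate 1, where 8.85% of all genes did. *MAN1A1*, a Golgi mannosidase, was at 11.8, 12.7 and 11.8 TPM in Control and 11.5, 7.43 and 8.07 TPM in A904 (fold change -0.41, limma, adjusted p = 0.273, and -0.58 with an adjusted p of 0.00529 without that library). *MGAT5*, which makes a branch of complex N-glycans, was at 23.8, 23.3 and 23.6 TPM in Control and 22.2, 19.7 and 20.2 TPM in A904 (fold change -0.18, limma, adjusted p = 0.271, and -0.23 with an adjusted p of 0.0259 without that library). Of 14 mucin genes that could accept O-glycans, 6 reached the test and none passed it. The 8 others were under 1 TPM in every library, *MUC2* among them at 0.41 to 0.73 TPM. *MUC20*, a membrane mucin, was at 31.8, 34.3 and 30.0 TPM in Control and 35.6, 24.2 and 23.1 TPM in A904 (fold change -0.23, limma, adjusted p = 0.5, and -0.42 with an adjusted p of 0.011 without A904 replicate 1). *MUC12*, another membrane mucin, was at 2.75, 2.08 and 2.39 TPM in Control and 1.92, 3.21 and 4.28 TPM in A904 (fold change 0.24, limma, adjusted p = 0.613, and 0.47 with an adjusted p of 0.0759 without that library). Without A904 replicate 1, 2 of the 6 (33.3%, against 8.85% of all genes) fell, *MUC13* and *MUC20*, and 0 rose.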

How the data were processed

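RNA-seq libraries of HT-29 cells, 3 Control and 3 A904, were described by 1 deposited table of TPM per gene. Per the labels, the authors trimmed paired-end reads with SeqPrep and Sickle, aligned them with HISAT2 and assembled them with StringTie, and the submitters' processing notes also name RSEM and edgeR, without versions. The study's methods name none of these tools and refer to an earlier description. The authors' deposited TPM values sum to 1000000 to 1000001 per library. No counts were used, so depth and counting error are unknown. The notes name a mouse genome build although the gene identifiers are human, so the build behind the file is not known, and positions are from GENCODE v29 on GRCh38 or from RefSeq on GRCh38.p14. A total of 25 lines that named no gene were left out.

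Genes at 1 TPM or more in at least 3 libraries were log-transformed as log2(TPM + 1) and fitted in limma 3.58.1 under R 4.3.3 (mean-variance trend, robust empirical Bayes, condition only), with Benjamini-Hochberg adjustment over all 14333 genes. A pseudocount of 1 understates fold changes of low genes. The members and lists were chosen with earlier results of these data known. Values in every library are given for the 10 tested members with the smallest p and the highest of each role. They are also given for the 4 other pathway genes and the 2 genes of each comparison list with the smallest p, and for *B3GNT3*, *CEACAM7* and *CD14*. *B3GNT3*, *GALNT10*, *MUC2*, *MUC13*, *CEACAM7*, *CD14*, *REG4*, *SPINK4*, *FCGBP* and *ZG16* were named after their values were seen. Ratios were compared by exact permutation. The procedure was tested on simulated data that held no outlying library. Its planted shifts were larger than any member's fold change with all 6 libraries. That test therefore cannot say whether changes of the members' size would be called. Alternatives changed the pseudocount (0.1, 0.5), the filter (none, 5 TPM), the scaling, library weights, trend and robust settings, a replicate block, and each library in turn.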

Additional observations from a re-analysis of the deposited data

How the results depend on the processing

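Of the named members' values, 14 genes under 15 alternatives, 192 of 210 kept their direction and their side of the threshold, 18 passed the threshold only under library weights or without A904 replicate 1, and 0 reversed. With library weights, which gave A904 replicate 1 a weight of 0.224, 6 members fell and 3 rose, 11 were lower and 4 higher at the unadjusted p, and 15 other pathway genes were lower and 5 higher. At the unadjusted p, 1 member was higher with median-of-ratios scaling, with no filter, without trend and robust settings, and with quantile normalization, and 8 were lower with quantile normalization. The causes were not tested. Leaving out each library in turn gave 0 to 6 members that fell and 0 to 3 that rose, 1 to 12 lower and 1 to 3 higher at the unadjusted p, 0 to 18 other pathway genes lower and 1 to 5 higher, and the highest of each was without A904 replicate 1. The members' median fold change stayed between -0.125 and -0.036. The difference in the core 2 to core 1 ratio, A904 minus Control on the log2 scale, ranged from -0.059, without A904 replicate 3, to 0.17, without A904 replicate 1. With a replicate block 0 members fell and 0 rose, 3 were lower and 3 higher at the unadjusted p, 5 other pathway genes were lower and 1 higher, and the median was -0.061. Deviations of same-numbered libraries from their group means correlated at 0.046, -0.039 and -0.005, so no pairing was seen. With 3 libraries in each group, this cannot show that they shared no culture or batch. No depth was given, so what counting error adds is unknown, and 7 members were too low to test.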
